A study of Homo sapiens with 12 samples.

Results

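The genes described here are the inhibitors of cyclin-dependent kinases and the D-type cyclins, which set whether a cell passes from the G1 phase into DNA synthesis. They were taken as every probe set (short array probes summarised together) whose only gene symbol in the platform annotation was CDKN1A, CDKN1B, CDKN1C, CDKN2A, CDKN2B, CDKN2C, CDKN2D, CCND1, CCND2 or CCND3. This gave 22 of the 54613 probe sets that are no Affymetrix control. They cover 9 of the 10 genes, and the RNA of CDKN2C was not analysed here. The CIP/KIP inhibitors had 7 probe sets, the INK4 inhibitors 7 and the D-type cyclins 8.

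RNA was measured on 12 Affymetrix arrays from MCF-10A, an established non-tumorigenic line of human mammary epithelial cells, 48 h after retroviral infection under standard growth conditions. The virus carried NICD, Notch1 L1601P+∆P, wild-type full-length Notch1 or no insert (vector control), with 3 biological replicates per group. NICD is the free intracellular domain of the Notch1 receptor, which acts without ligand. L1601P changes the region where the receptor's subunits are joined, and ∆P deletes the PEST end of the protein, a signal for its breakdown. The arms therefore allow Notch1 forms of different activity to be compared in 1 cell line. The descriptions of the NICD samples add "gfp". The sources used here do not give what that stands for, the promoter of the virus, the share of infected cells or any selection. All cells are of 1 line. The labels call the replicates biological but do not say whether they were separate cultures or infections. The p-values therefore cover the spread among these samples, which may not include that between separate cultures or infections.

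D-type cyclins are the subunits that bind and switch on the kinases CDK4 and CDK6, which phosphorylate the retinoblastoma protein and so release E2F transcription factors. INK4 proteins bind CDK4 and CDK6 and block their pairing with a D cyclin. CIP/KIP proteins bind cyclin-CDK pairs, inhibit those with CDK2, and also help D cyclins to assemble with their kinases. Notch acts through the DNA-binding factor RBPJ, and CDKN1A, CCND1 and MYC have been described as its targets in some cell types.

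The deposited values are log2 signals, and a difference of 1 is a 2-fold difference in signal. Their array medians lay between 5.64 and 5.70 and correlations between arrays between 0.9827 and 0.9980, with no pair of identical arrays. Group means are given ± SD over 3 arrays and log2 differences ± the standard error of the fit. A probe set was called at a limma Benjamini-Hochberg adjusted p under 0.05 over all 54613 probe sets. Levels are not compared between probe sets, except as the percentile of a probe set's mean among all of them. As the samples are bulk cultures, fewer cells of a type and less RNA per cell cannot be told apart.

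NOTCH1 signal checks the labels. The probe set 223508_at averaged 8.79 in NICD, 8.74 in L1601P+∆P and 9.16 in full-length cells, against 6.54 in vector cells, and rose in all 3 (limma adjusted p = 7.92e-10, 1.37e-08 and 1.23e-08). The other, 218902_at, averaged 9.72, 9.50 and 9.52 in the same order, against 9.44. The Notch target NRARP averaged 11.06 in NICD, 8.81 in L1601P+∆P and 6.94 in full-length cells, against 6.63 in vector cells, and HEY1 averaged 10.37, 7.74 and 6.97, against 7.02. Of 12 markers listed for mammary epithelial cells 9 were tested, and all 9 lay above the array median. They moved both ways in NICD against vector cells. ITGB4 differed by -1.97, ITGA6 by -1.07, EPCAM by -0.74, EGFR by -0.72 and KRT18 by -0.24. KRT5 differed by 0.58, KRT14 by 0.57, KRT8 by 0.37 and CDH1 by 0.02. The summed signal of the 5 tested blood cell markers was 2691 to 2892 in NICD, 971 to 1015 in L1601P+∆P and 653 to 687 in full-length cells, against 617 to 640 in vector cells. Its defining marker PTPRC stayed near the bottom of the scale at 3.63, 3.50 and 3.52, against 3.63, while CD14 averaged 11.34, 9.61 and 8.87, against 8.75. The 7 fibroblast markers summed to 2665 to 2829 in NICD cells, against 2141 to 2280 in vector cells, and the 5 endothelial markers to 221 to 239, against 183 to 211. With 1 probe set per gene, only DCN of the fibroblast markers was called between these groups, at 11.21 against 10.85. Of the endothelial markers only KDR was, at 5.64 against 4.59. The part of these markers in the results below was not tested.

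Among the CIP/KIP inhibitors, CDKN1C and CDKN1A rose in NICD cells while CDKN1B was not called. For 1 member that rose and its relative that was not called, the 250 bases before a start site are shown from RefSeq (GRCh38.p14, plus strand), because both contain the GC box through which SP1 family factors are known to act, and neither contains the RBPJ core. Capitals mark each GC box, GGGCGG or on the other strand CCGCCC. The CDKN1A window is chr6:36678464-36678713 and the CDKN1B window is chr12:12717118-12717367.
CDKN1A: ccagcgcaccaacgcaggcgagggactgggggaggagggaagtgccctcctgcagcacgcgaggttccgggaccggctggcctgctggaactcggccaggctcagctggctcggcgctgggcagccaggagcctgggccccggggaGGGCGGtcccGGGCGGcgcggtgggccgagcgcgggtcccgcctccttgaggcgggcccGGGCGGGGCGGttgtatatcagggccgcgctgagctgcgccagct
CDKN1B: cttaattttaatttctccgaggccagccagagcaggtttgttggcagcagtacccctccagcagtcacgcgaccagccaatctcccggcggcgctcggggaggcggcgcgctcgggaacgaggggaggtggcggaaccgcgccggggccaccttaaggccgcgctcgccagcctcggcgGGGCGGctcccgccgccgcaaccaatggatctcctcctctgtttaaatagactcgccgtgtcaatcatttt
The GC box occurred 4 times in the CDKN1A window, a pair of them overlapping by a base, and 1 time in that of CDKN1B. Over 12 such windows of 7 of the named genes it was present in 9, and 3 of the 12, of which 2 hold the box, are windows of CDKN2C. It was present in 42.6% of all 35116 windows of this length. The RBPJ core TGGGAA, or TTCCCA on the other strand, was present in 0 of the 12 windows and in 20.8% of all windows. No window of CDKN1C, CCND1 or CCND2 was used here. A match of letters is a description, and a window without one says nothing of binding elsewhere.

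CDKN1A encodes p21, the CIP/KIP inhibitor best known as a target of p53 (chromosome 6, 36676463 to 36687332, GRCh38.p14). Its 1 probe set, 202284_s_at, read 11.28, 11.22 and 11.27 in NICD cells, 10.99, 11.05 and 10.86 in L1601P+∆P cells, 10.86, 10.92 and 10.92 in full-length cells, and 10.83, 10.88 and 10.96 in vector cells. All 3 NICD arrays lay above all 9 others, and the other groups overlapped. The level was already high, at percentile 96.7 of all probe sets. The log2 difference between NICD and vector cells was 0.37 ± 0.06, a 1.29-fold signal (limma adjusted p = 0.0011). Against L1601P+∆P cells it was 0.29 ± 0.06 (limma adjusted p = 0.00899), and against full-length cells 0.36 ± 0.06 (limma adjusted p = 0.00138). L1601P+∆P differed from vector by 0.08, with a 95% confidence interval from -0.06 to 0.22, and full-length Notch1 by 0.01, from -0.13 to 0.15.

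CDKN1C encodes p57, an imprinted CIP/KIP inhibitor linked to exit from the cell cycle during differentiation (chromosome 11, 2883218 to 2885775). Its brightest probe set, 213348_at, read 10.12, 10.25 and 9.98 in NICD cells, 9.93, 9.95 and 9.69 in L1601P+∆P cells, 9.20, 9.35 and 9.34 in full-length cells, and 9.08, 9.24 and 8.94 in vector cells. Both the NICD and the L1601P+∆P arrays lay above every full-length and vector array, and full-length and vector arrays overlapped. This was the largest rise among the 22 probe sets, 1.03 ± 0.10 in NICD against vector cells, or 2.05-fold (limma adjusted p = 6.84e-06). In L1601P+∆P against vector cells it was 0.77 ± 0.10, or 1.71-fold (limma adjusted p = 0.000913). NICD and L1601P+∆P cells differed by 0.26 ± 0.10, with an interval from 0.04 to 0.48 that did not pass the adjusted threshold (limma adjusted p = 0.116). The difference of full-length from vector cells was 0.21 (interval -0.01 to 0.42, limma adjusted p = 0.958).

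The other CDKN1C probe sets mostly moved with it. Log2 differences of 219534_x_at, 216894_x_at and 213182_x_at were 0.75, 0.66 and 0.70 in NICD against vector cells, and 0.69, 0.56 and 0.63 in L1601P+∆P against vector cells, all called. Probes with the suffix x can share sequence with other transcripts, so these are not independent evidence. The dim probe set 219533_at averaged 4.56 in NICD, 4.68 in L1601P+∆P and 4.59 in full-length cells, against 4.55 in vector cells, and was called in none of the 6 comparisons. The 4 brighter probe sets differed between NICD and L1601P+∆P cells by 0.07 to 0.26, none called.

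CDKN1B encodes p27, the inhibitor that accumulates in resting cells and is destroyed through SKP2 (chromosome 12, 12717368 to 12722369). Its probe set 209112_at read 9.18, 9.28 and 9.15 in NICD cells, 9.15, 9.09 and 9.46 in L1601P+∆P cells, 9.35, 9.40 and 9.36 in full-length cells, and 9.36, 9.32 and 9.31 in vector cells. The NICD arrays all lay below the vector arrays, yet by only -0.13 on average (interval -0.31 to 0.06, limma adjusted p = 0.381). The third L1601P+∆P array was the highest of all 12.

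The probe sets of the INK4 inhibitors were dim, below the median of all probe sets, except CDKN2A 209644_x_at. None of the 7 was called in any of the 6 comparisons in the limma fit over all probe sets. Of all probe sets 19.3% were called in NICD, 2.39% in L1601P+∆P and 0.011% in full-length cells, each against vector cells. Between the Notch1 forms it was 13% in NICD against L1601P+∆P, 18.2% in NICD against full-length and 1.63% in L1601P+∆P against full-length cells. With so few probe sets, a count of 0 says little. In NICD against vector cells 3 of the 7 had an unadjusted p under 0.05, where 29.8% of all probe sets had one. MCF-10A is known to carry a deletion at the CDKN2A and CDKN2B locus. CDKN2A, which encodes p16 and ARF, had its brightest probe set 209644_x_at at percentile 61.8, with 6.28 ± 0.14 in NICD, 6.51 ± 0.11 in L1601P+∆P and 6.44 ± 0.06 in full-length cells, against 6.50 ± 0.06 in vector cells (n = 3 each). Its other probe sets, 211156_at and 207039_at, lay at percentiles 29.2 and 14.3. CDKN2B, which encodes p15, lay at percentile 36.9 with 207530_s_at and 7.7 with 236313_at. The first averaged 4.81 in NICD, 4.81 in L1601P+∆P and 4.88 in full-length cells, against 5.05 in vector cells. The second averaged 3.18, 3.11 and 3.10 in that order, against 3.24. CDKN2D, which encodes p19INK4D and lies on chromosome 19, averaged 5.54 ± 0.05 in NICD, 5.52 ± 0.08 in L1601P+∆P and 5.57 ± 0.10 in full-length cells, against 5.35 ± 0.06 in vector cells with 210240_s_at (n = 3 each). In all 3 groups that probe set's arrays lay above those of vector cells, by 0.19, 0.17 and 0.22 on average, without a call. For NICD against vector cells that probe set passed the threshold with 1 probe set per gene, the scale used for the gene lists below (limma adjusted p = 0.0464), and with the replicate number as a block (0.0438). CDKN2A 209644_x_at, at -0.22, passed it when dim probe sets were left out (limma adjusted p = 0.037). Given its suffix x and the deletion named above, its signal may come from other transcripts, which was not tested. The second CDKN2D probe set, 213586_at, went the other way from 210240_s_at. It averaged 4.89 in NICD, 4.89 in L1601P+∆P and 4.88 in full-length cells, against 5.02 in vector cells.

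The D-type cyclins moved in opposite directions. CCND1, cyclin D1, rose in NICD and L1601P+∆P cells (chromosome 11, 69641156 to 69654474). Its brighter probe set, 208712_at, read 10.98, 10.86 and 10.71 in NICD cells, 10.29, 10.33 and 10.28 in L1601P+∆P cells, 9.996, 10.08 and 10.13 in full-length cells, and 9.83, 9.94 and 9.97 in vector cells. The 4 groups stood in this order with no array of one overlapping the next. NICD exceeded vector cells by 0.94 ± 0.07, or 1.92-fold (limma adjusted p = 1.13e-06), and L1601P+∆P exceeded them by 0.39 ± 0.07, or 1.31-fold (limma adjusted p = 0.0159). NICD exceeded L1601P+∆P cells by 0.55 ± 0.07 (limma adjusted p = 0.000242). Neighbours lower in the order were not separated by the test: L1601P+∆P differed from full-length cells by 0.23 (limma adjusted p = 0.176), and full-length from vector cells by 0.16 (limma adjusted p = 0.958).

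The second CCND1 probe set, 208711_s_at, averaged 8.66 ± 0.03 in NICD, 8.38 ± 0.12 in L1601P+∆P and 8.22 ± 0.11 in full-length cells, against 8.07 ± 0.10 in vector cells (n = 3 each). It rose by 0.59 ± 0.08 in NICD against vector cells (limma adjusted p = 0.00014), while its 0.31 in L1601P+∆P cells was not called (limma adjusted p = 0.0696). The call of 208712_at in L1601P+∆P against vector cells was lost without replicate 1 or 2 of L1601P+∆P or replicate 1 of vector (limma adjusted p = 0.058, 0.0738 and 0.0745), at differences of 0.35 to 0.39.

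CCND2, cyclin D2, fell in NICD cells (chromosome 12, 4273762 to 4305353). Its brightest probe set, 200953_s_at, read 9.19, 9.20 and 9.29 in NICD cells, 9.81, 9.92 and 9.80 in L1601P+∆P cells, 9.86, 9.85 and 9.84 in full-length cells, and 9.75, 9.70 and 9.73 in vector cells. The NICD arrays were the lowest 3 of 12, and the L1601P+∆P and full-length arrays all lay slightly above the vector arrays. NICD differed from vector cells by -0.49 ± 0.06, a signal 1.41-fold lower (limma adjusted p = 3.43e-05). It differed from L1601P+∆P cells by -0.62 ± 0.06 (limma adjusted p = 7.86e-06) and from full-length cells by -0.62 ± 0.06 (limma adjusted p = 4.56e-06). L1601P+∆P differed from vector cells by 0.12, with an interval from 0.00 to 0.25 (limma adjusted p = 0.302).

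The CCND2 probe sets agreed in direction but not in every call. In NICD against vector cells 200951_s_at differed by -0.43 ± 0.07 (limma adjusted p = 0.000498), while 200952_s_at differed by -0.37 (limma adjusted p = 0.0641) and 231259_s_at by -0.22 (limma adjusted p = 0.098). Against L1601P+∆P cells all 4 fell in NICD cells, by -0.62 to -0.30. The call of 231259_s_at in that comparison was lost in 10 of 17 alternatives, among them leaving out replicate 1 or 3 of NICD, 3 of L1601P+∆P, 2 or 3 of full-length, or 1 or 2 of vector (limma adjusted p = 0.0501 to 0.136). That of CCND1 208711_s_at was lost in 7 of 17, among them leaving out any NICD replicate or replicate 2 or 3 of L1601P+∆P (limma adjusted p = 0.0628 to 0.127).

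CCND3, cyclin D3, had the smallest difference of the D cyclins between NICD and vector cells, by brightest probe set (chromosome 6, 41934933 to 42050035). Its probe set 201700_at read 10.62, 10.61 and 10.49 in NICD cells, 10.74, 10.71 and 10.62 in L1601P+∆P cells, 10.66, 10.70 and 10.66 in full-length cells, and 10.75, 10.77 and 10.85 in vector cells. The vector arrays were all above those of the other groups. NICD cells were lower by -0.22 ± 0.06 (limma adjusted p = 0.025), a call that was lost under cyclic loess scaling (-0.12, limma adjusted p = 0.189), in a fit of those groups alone (0.0814), and without replicate 3 of NICD (0.0894) or replicate 2 or 3 of vector (0.0522 and 0.0953). The dimmer 1562028_at averaged 6.04 ± 0.39 in NICD cells, against 6.15 in vector cells, and was not called.

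**Figure D1:**
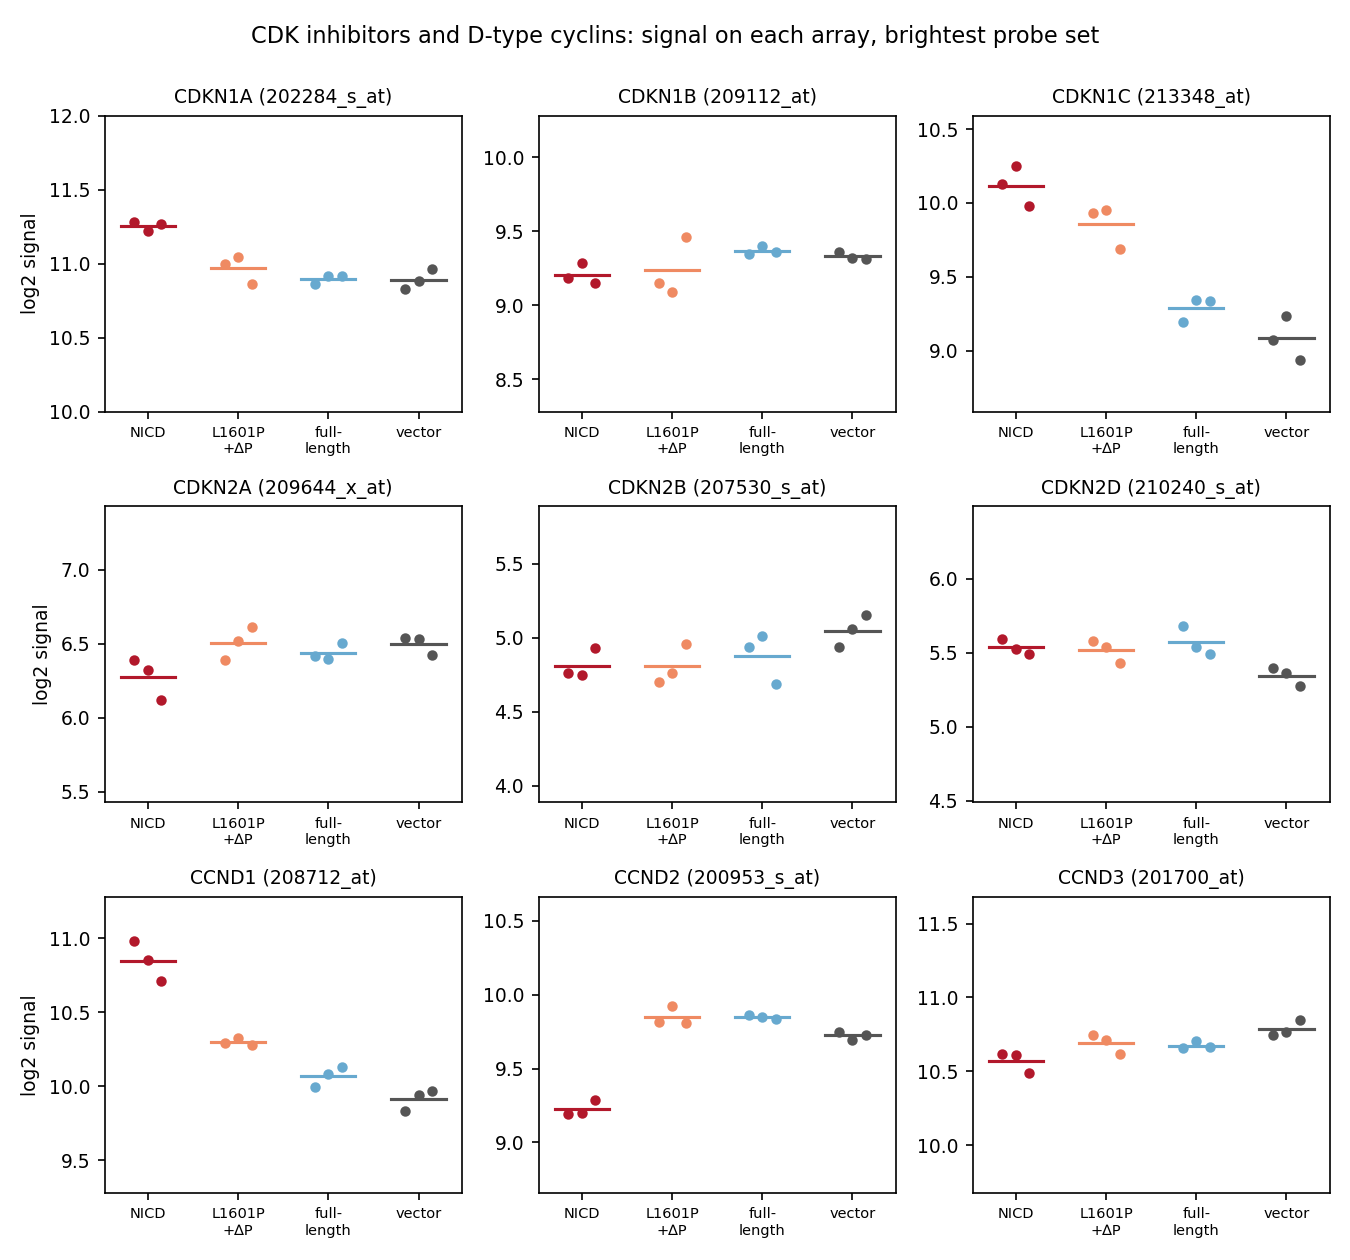
Log2 signal on each of the 12 arrays for the brightest probe set of the 9 genes (y axes of equal span; points are arrays, bars are group means of 3). CDKN1C stands high in both NICD and L1601P+∆P cells, at 10.12 and 9.86 against 9.08 in vector cells, CCND2 is low in NICD cells, at 9.23 against 9.72, and the groups of the INK4 genes lie close together.

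The shift between cyclin D1 and cyclin D2 can be read on each array as CCND1 minus CCND2 (208712_at and 200953_s_at), set relative to the vector mean. It was 1.60, 1.46 and 1.23 in NICD cells, 0.29, 0.22 and 0.29 in L1601P+∆P cells, -0.05, 0.05 and 0.10 in full-length cells, and -0.10, 0.06 and 0.05 in vector cells. The NICD arrays stood well apart, the L1601P+∆P arrays lay above the remaining 6, and full-length and vector arrays overlapped. This difference was formed after the changes were known and is given as a description.

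**Figure D2:**
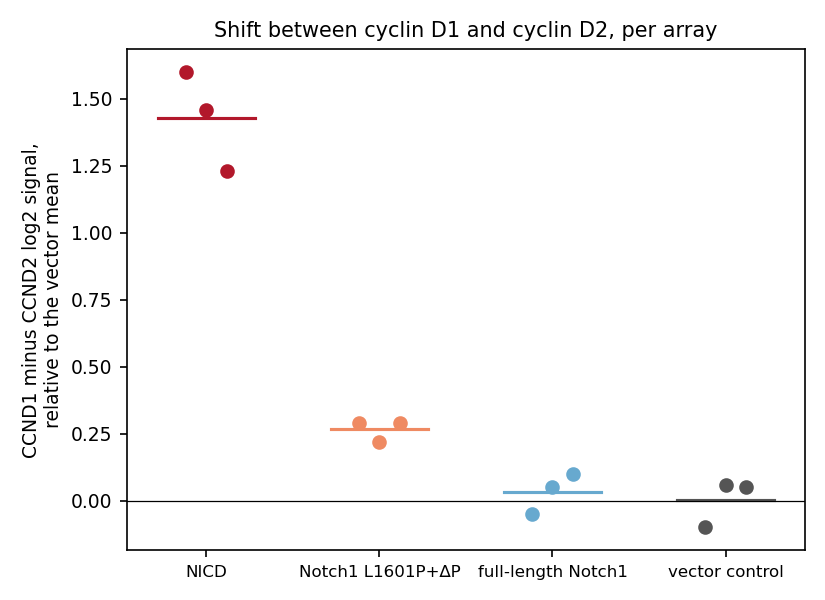
CCND1 minus CCND2 log2 signal per array, relative to the vector mean (y axis; points are arrays, bars are group means of 3). Means were 1.43 in NICD, 0.26 in L1601P+∆P and 0.03 in full-length cells, against 0.00 in vector cells.

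Counted over the 22 probe sets, 10 were called in NICD against vector cells, 7 higher and 3 lower, which is 45.5%, where 19.3% of all probe sets were called (6.75% higher and 12.6% lower). The median log2 difference of the 22 was -0.10, against -0.02 over all probe sets. The calls fell on CDKN1A (1 of 1 probe set), CDKN1C (4 of 5), CCND1 (2 of 2), CCND2 (2 of 4) and CCND3 (1 of 2). Probe sets of 1 gene share a target and are not separate observations. The members were also chosen with earlier results of these data known, so these counts are descriptions. In L1601P+∆P against vector cells 5 of 22 were called, all higher, 4 of CDKN1C and 1 of CCND1, where 2.39% of all probe sets were called (1.1% higher). In full-length against vector cells limma called 0 of 22, where 0.011% of all probe sets were called, and 3 of 22 had an unadjusted p under 0.05, as had 5.13% of all. The arrays of the groups did not overlap for 8 probe sets higher and 9 lower in NICD against vector cells, where 33% of all probe sets did not overlap. In L1601P+∆P against vector cells this held for 10 higher and 1 lower (24% of all), and in full-length against vector cells for 5 higher and 2 lower (10.6% of all). These comparisons share the vector arrays.

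**Figure D3:**
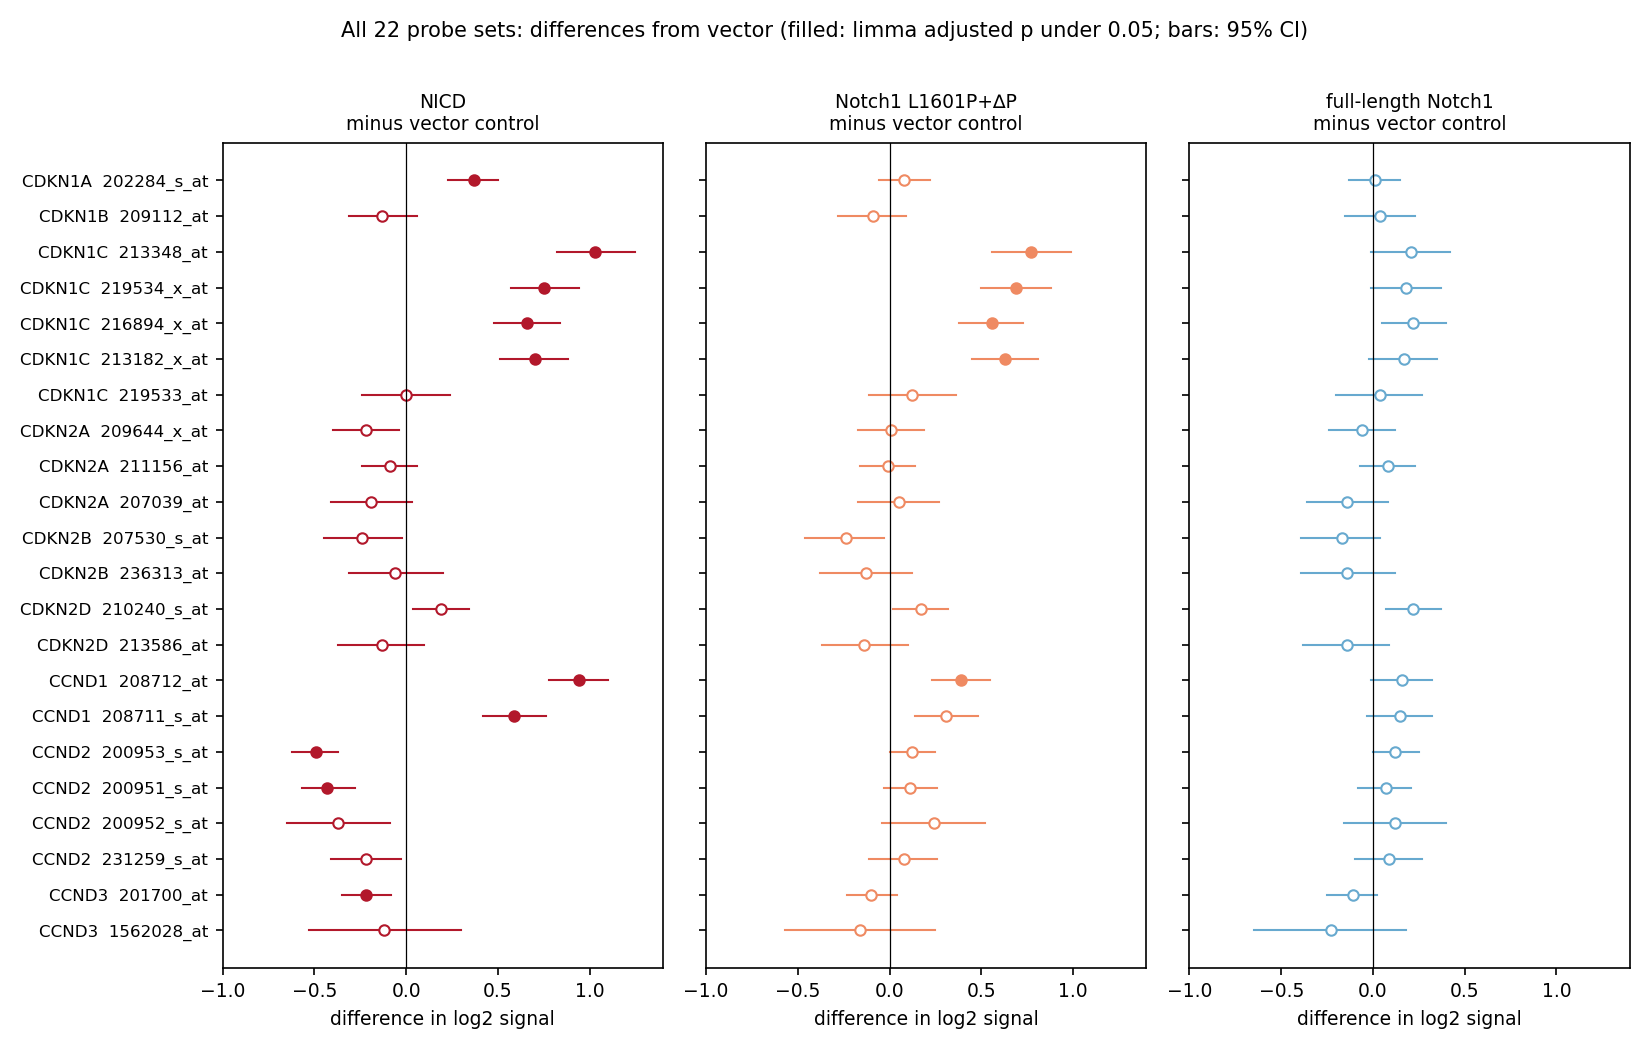
Log2 difference from vector control (x axis) for each of the 22 probe sets in NICD, L1601P+∆P and full-length cells; points are fitted differences, bars 95% confidence intervals, and filled points passed limma's adjusted p under 0.05. Filled points number 10 for NICD, 5 for L1601P+∆P and 0 for full-length Notch1.

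Between the Notch1 forms, 7 of 22 probe sets were called in NICD against L1601P+∆P cells, where 13% of all were called (6.04% higher and 7.01% lower). CDKN1A and both CCND1 probe sets were higher and all 4 of CCND2 lower, while no CDKN1C probe set was called. In NICD against full-length cells 11 of 22 were called, 7 higher and 4 lower, where 18.2% of all were called (7.14% higher and 11.1% lower). CDKN1C differed there by 0.83 ± 0.10 (limma adjusted p = 5.49e-05) and CCND1 by 0.78 ± 0.07 (limma adjusted p = 6.73e-06). The calls of CCND2 200952_s_at and 231259_s_at in it were lost when replicate 3 of NICD or replicate 2 or 3 of full-length was left out, and that of 231259_s_at also without replicate 1 of NICD or of full-length (limma adjusted p = 0.0511 to 0.0979).

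In L1601P+∆P against full-length cells 3 of 22 were called, all CDKN1C, where 1.63% of all probe sets were called (0.925% higher). Its 213348_at differed by 0.56 ± 0.10 (limma adjusted p = 0.0114). The count was 0 without replicate 1 or 2 of L1601P+∆P and 1 without replicate 1 of full-length, and that probe set's adjusted p was then 0.0626, 0.066 and 0.0532, at differences of 0.52 to 0.53.

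The genes around these members were read from 5 lists, with 1 probe set per gene, the brightest, and adjusted p-values over 19775 genes. Of the 80 genes tested, 15 were higher and 19 lower in NICD against vector cells, where 27.6% of all genes were called, 9.54% higher and 18.1% lower. Under cyclic loess scaling the split was 19 higher and 12 lower. Of the calls over all probe sets, 49.1% were higher under that scaling and 34.9% in the deposited one. For cyclic loess counts, here and in the lists below, the share of all genes called is not given. In L1601P+∆P against vector cells 4 were higher and 3 lower, where 5.12% of all genes were called, 2.16% higher and 2.95% lower. Under cyclic loess the split was 5 higher and 1 lower, where 57.8% of the calls over all probe sets were higher, against 46.1% in the deposited scaling. In full-length against vector cells limma called 0 of 80, where 0.0354% of all genes were called, and 3 had an unadjusted p under 0.05, as had 5.32% of all genes. Between the Notch1 forms 26 of 80 were called in NICD against L1601P+∆P cells, where 19.8% of all genes were called, 33 in NICD against full-length cells (27%), and 7 in L1601P+∆P against full-length cells (3.72%).

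Among 21 kinases, G1 cyclins, pocket proteins and E2F factors, 7 were higher and 6 lower in NICD against vector cells, with a median of 0.02, against -0.02 over all genes. Over all genes 9.54% were higher and 18.1% lower. CCNA1, an A-type cyclin, rose by 1.06 in NICD and 0.75 in L1601P+∆P cells (limma adjusted p = 1.32e-07 and 3.62e-05). CDK6, a partner kinase of the D cyclins, averaged 10.97 in NICD cells, against 10.20 in vector cells, a difference of 0.77 (limma adjusted p = 1.99e-05), with 5 of its 7 probe sets called higher. E2F2, an activating E2F factor, rose by 0.69, with 1 of its 3 probe sets called. The repressive E2F factors did not move together: E2F5 and E2F7 fell by 0.50 and 0.45, each with 1 of its 2 probe sets called, while E2F8, named after its values were seen, rose by 0.59 (limma adjusted p = 3.65e-05) with its 1 probe set. RBL1, the pocket protein p107, fell by 0.48, with 2 of its 4 probe sets called. CDK4, the other partner kinase, named after its values were seen, averaged 10.89 ± 0.13 in NICD cells and 11.11 ± 0.04 in vector cells (n = 3 each). Its difference of -0.22 (limma adjusted p = 0.0214) was not called under cyclic loess (0.0976), in a fit of those groups alone, or without replicate 3 of NICD or replicate 2 or 3 of vector. RBL1 also fell in L1601P+∆P cells, by 0.36 (limma adjusted p = 0.0289), a call lost in 7 of 17 alternatives, among them leaving out replicate 1 or 2 of L1601P+∆P or 1 or 3 of vector.

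Of 15 genes that act in the turnover of cyclin D and the CIP/KIP inhibitors, 4 were called in NICD against vector cells. The split was 0 higher and 4 lower, with a median of -0.09 over the list. Calls among all genes came to 27.6%, of which 9.54% were higher and 18.1% lower. Among 15 genes a count of 0 higher says little. At an unadjusted p under 0.05, 0 were higher and 5 lower, where 36.4% of all genes had one. Under cyclic loess 0 were higher and 2 lower. SKP2, the ubiquitin ligase subunit that recognises p27, differed by -0.32 (limma adjusted p = 0.00193), with 3 of its 3 probe sets lower, by -0.59 to -0.32. CUL4B, a cullin scaffold of ubiquitin ligases, differed by -0.48 in NICD and -0.24 in L1601P+∆P cells. The second value lost its call in 10 of 17 alternatives, among them leaving out replicate 1 or 2 of L1601P+∆P, 1 of NICD, 2 or 3 of full-length, or 2 or 3 of vector. DTL, which targets p21 for destruction, differed by -0.26 and lost its call under cyclic loess (limma adjusted p = 0.0501), as did CKS1B, an SKP2 cofactor, at -0.19 (0.118).

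Most proliferation markers, like most genes, were not called. Of 18, 1 was higher and 2 lower in NICD against vector cells, with a median of -0.04. Of all genes 27.6% were called there, 9.54% higher and 18.1% lower. Under cyclic loess 2 were higher and 0 lower, as TYMS, the enzyme that makes thymidylate, was then called (0.23, limma adjusted p = 0.00392) and TOP2A kept its call. TOP2A, a topoisomerase of dividing cells, differed by 0.21 (limma adjusted p = 0.022), with 1 of its 3 probe sets called, and without a call in a fit of those groups alone or when replicate 2 of NICD or replicate 2 or 3 of vector was left out. MCM2, a subunit of the replicative helicase, differed by -0.30 and MCM3 by -0.19, and neither was called under cyclic loess (limma adjusted p = 0.0552 and 0.248). The call of MCM3 was lost in 8 of 17 alternatives, among them leaving out replicate 3 of NICD, 1 of L1601P+∆P, 2 of full-length, or 1 or 3 of vector. In L1601P+∆P against vector cells limma called 0 of 18, and 2 had an unadjusted p under 0.05, where 20.9% of all genes had one. MYC, which promotes growth and entry into the cycle, averaged 12.84 in NICD, 13.11 in L1601P+∆P and 13.20 in full-length cells, against 13.22 in vector cells, and fell by 0.38 in NICD cells (limma adjusted p = 0.000163).

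As CDKN1A is a p53 target, other p53 targets were read beside it. Of 20 listed, 17 were tested, and 6 were higher and 4 lower in NICD against vector cells (8 and 3 under cyclic loess), with a median of 0.05. Over all genes 9.54% were higher and 18.1% lower. PLK2, a stress-induced kinase, averaged 11.41 in NICD, 10.74 in L1601P+∆P and 10.02 in full-length cells, against 9.88 in vector cells. GADD45A, a growth arrest gene, averaged 12.10, 11.33 and 10.66 in that order, against 10.59. Both rose in NICD cells, by 1.53 and 1.52, and in L1601P+∆P cells, by 0.86 and 0.74. PHLDA3, an inhibitor of AKT, rose by 0.55 in NICD and 0.27 in L1601P+∆P cells, the second call being lost without replicate 2 of L1601P+∆P (limma adjusted p = 0.0572). The death receptor FAS fell by 0.56 in NICD cells, with 5 of 5 probe sets lower, as did SESN2 by 0.56, with 1 of 2 probe sets called, and the kinase PLK3 by 0.50, with 1 of 3.

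Of 9 neighbours of CDKN2A and CDKN2B on 9p21, 1 was higher and 3 lower in NICD against vector cells, with a median of -0.06. Over all genes 9.54% were higher and 18.1% lower. ELAVL2, an RNA-binding protein, averaged 6.53 in NICD, 7.51 in L1601P+∆P and 7.96 in full-length cells, against 8.05 in vector cells, and fell by 1.52 in NICD and by 0.54 in L1601P+∆P cells (limma adjusted p = 1.38e-08 and 0.00153). IFNE was dim, with 3.42 in NICD cells, against 3.98 in vector cells. KLHL9 rose by 0.29. FOCAD differed by -0.16, and that call was lost in 8 of 17 alternatives, among them leaving out replicate 1 or 2 of NICD or of vector. MTAP, next to CDKN2A, averaged 5.59 in NICD, 5.76 in L1601P+∆P and 5.43 in full-length cells, against 5.60 in vector cells, and lay at percentile 48.8. CDKN2B-AS1 lay at percentile 4.9.

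**Figure D4:**
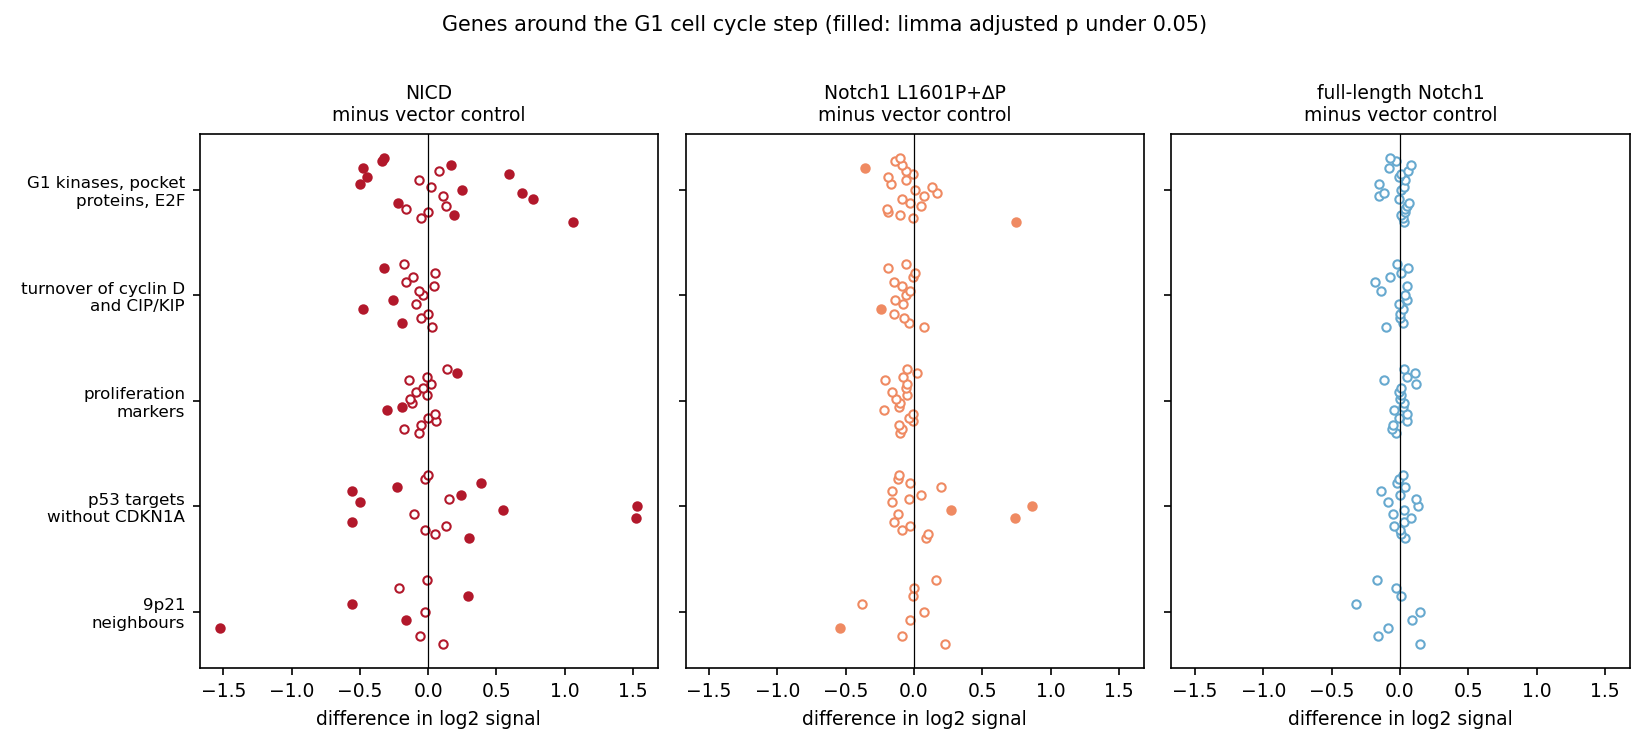
Log2 difference from vector control (x axis, the same in all panels) for the 80 genes of the 5 lists in NICD, L1601P+∆P and full-length cells; each point is a gene, filled where limma's adjusted p was under 0.05. Filled points number 34 for NICD, 7 for L1601P+∆P and 0 for full-length Notch1, and the outermost are PLK2 and GADD45A, at 1.53 and 1.52, and ELAVL2, at -1.52.

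The genes whose signal most closely followed each called member were taken by Pearson correlation over the 12 arrays, among 19766 other genes. These values are descriptions, since all genes share the arrays and the same 4 groups. CDKN1A was followed by TUBA1A (r = 0.985), YWHAZ (r = 0.982) and CHFR (r = 0.975). CDKN1C was followed by the protease inhibitors SERPINB7 (r = 0.991) and SLPI (r = 0.975) and by the protease CTSC (r = 0.979). CCND1 was followed by TCEAL4 (r = 0.993), SELENBP1 (r = 0.989) and MARCKS (r = 0.988). CCND2 was followed by RAB3D and ARHGAP29 (r = 0.975 each) and PHACTR3 (r = 0.968). CCND3 was followed less closely, by RARA-AS1 (r = 0.952), CAPN8 (r = 0.943) and ABCA7 (r = 0.929).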

How the data were processed

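The deposited values are log2 signals per probe set from 12 Affymetrix arrays. Per the submitters' processing notes, RMA and limma were used, with versions not given in the sources used here. RMA gives all arrays one distribution, which hides any shift common to most genes. Arrays have no depth, and their number limits the precision. Of 54675 probe sets 62 were controls. In the platform annotation 41091 had 1 gene symbol, 1801 several and 11721 none, and 41037 of those with 1 symbol matched RefSeq, with 0 symbols changed.

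All 12 arrays were fitted at once with limma 3.58.1 in R 4.3.3 (group means, lmFit and eBayes, two-sided, 8 residual and 4.30 prior degrees of freedom), for 6 comparisons. The script was tested on simulated data. Alternatives were cyclic loess scaling, trended and robust moderation, a filter on dim probe sets, 1 probe set per gene, a fit of only the groups compared, the replicate number as a block, and leaving out each array.

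Every member probe set is named. In each list and comparison with vector, up to 3 called genes per direction with the largest change were named, and for each called member the 3 genes of highest correlation. Of the list genes, E2F8, CDK4, CKS1B, TYMS, MTAP and CDKN2B-AS1 were named outside this rule. The members and lists were chosen with earlier results of these data known.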

Additional observations from a re-analysis of the deposited data

How the results depend on the processing

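No called log2 difference of a member probe set changed sign under any alternative run. Over all alternatives 2132 values of member differences kept their side of the threshold, 44 lost and 20 gained a call, and 60 uncalled ones changed sign. With 1 probe set per gene, by construction, called members numbered 6 in NICD against vector, 2 in L1601P+∆P against vector, 3 in NICD against L1601P+∆P, 4 in NICD against full-length and 1 in L1601P+∆P against full-length cells, of 9 genes. Of all 19775 genes 27.6%, 5.12%, 19.8%, 27% and 3.72% were called in these comparisons, in that order. The 6 members called in NICD against vector cells were CDKN1A, CDKN1C, CDKN2D, CCND1, CCND2 and CCND3. With trended and robust moderation, 5 member probe sets were called in L1601P+∆P against full-length cells, and 12 list genes in L1601P+∆P against vector and 17 in L1601P+∆P against full-length cells (main counts 3, 7 and 7). In that last comparison 13 list genes were called without dim probe sets and 4 in a fit of those groups alone. Shares of all probe sets and genes called are not given for these settings, nor for leaving out an array or the replicate block below. Whether these changes in count go beyond those over all features was therefore not tested, nor was their cause.

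Leaving out 1 array at a time gave 9 to 11 called members and 29 to 34 list genes in NICD against vector, 4 to 5 and 4 to 8 in L1601P+∆P against vector, 0 and 0 in full-length against vector, 5 to 7 and 21 to 27 in NICD against L1601P+∆P, 9 to 11 and 28 to 34 in NICD against full-length, and 0 to 4 and 4 to 8 in L1601P+∆P against full-length cells. The list count of 4 came without replicate 2 of L1601P+∆P in both comparisons and, in the second, also without replicate 3 of full-length.

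Same-numbered arrays did not pair: over 18 pairs the deviations correlated at -0.202 to 0.237, 2 of them over 0.1, and 4 had their best match in their own number. With the replicate block 11 member probe sets were called in NICD against vector cells, 5 in NICD against L1601P+∆P cells, and 4 list genes in L1601P+∆P against full-length cells (main 10, 7 and 7).

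Cyclic loess moved the median of all probe sets by at most 0.03. The share of calls that were higher was 34.9% in the deposited scaling and 49.1% under cyclic loess in NICD against vector, 46.1% and 57.8% in L1601P+∆P against vector, 39.2% and 51.2% in NICD against full-length, and 56.6% and 67.1% in L1601P+∆P against full-length cells.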
